A study of Homo sapiens with 2 samples.

Results

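The genes described here make, sense and degrade prostaglandin E2 (PGE2). They are 10 genes chosen by symbol from the 26506 in the deposited tables: the phospholipase gene PLA2G4A, the cyclooxygenase genes PTGS1 and PTGS2, the E synthase genes PTGES, PTGES2 and PTGES3, the receptor genes PTGER2 and PTGER4, and the breakdown genes HPGD and PTGR1. All 10 had a row in both tables, and 9 reached 1 CPM (the estimated count scaled to library size) in at least 1 library; HPGD did not.

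Poly(A) RNA was sequenced from human corneal epithelial cells (ATCC CRL-11515), an established line of the corneal surface epithelium, after 72 hours in either of 2 media. The special medium (SP) was DMEM/F12 carrying 10% serum from fetal cattle, 1 mM calcium chloride, EGF at 10 ng/mL and an antibiotic and antimycotic mix. The other medium was keratinocyte serum-free medium (KSFM), whose supplements the labels do not list. The components of the special medium were changed together, so effects of single components cannot be told apart. RNA from 3 cultures was pooled into 1 library per medium. There is thus no spread between replicates, no p-value and no replicate check of any difference, and the ranges given in parentheses are exact 95% intervals for counting error only. The SP library held 16900472 counts and the KSFM library 21604652. Of 6 corneal markers 3 were measured: TKT, a metabolic enzyme, was 2.83-fold higher in SP, while CLU and PAX6 (73 counts in SP and 69 in KSFM) did not pass the 2-fold rule. The corneal keratins were nearly absent, with KRT12 at 0 counts in both libraries and KRT3 at 1 in SP and 0 in KSFM, and ALDH3A1 had 14 and 5. Of 7 epithelial markers 5 were measured: KRT8 was 2.78-fold higher in SP, and KRT18, EPCAM, CDH1 and KRT5 did not pass, with log2 ratios of 0.96, 0.40, -0.32 and -0.60. KRT14 (10 counts in SP and 4 in KSFM) and TP63 (13 and 5) were below 1 CPM in both. The part of these marker differences in the results was not tested. Fewer cells of a kind and less RNA per cell cannot be told apart in such bulk libraries.

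PGE2 is made in 3 steps. Cytosolic phospholipase A2 frees arachidonic acid from membrane lipids, a cyclooxygenase turns it into the unstable intermediate prostaglandin H2, and an E synthase turns that into PGE2. PGE2 leaves the cell and acts on surface receptors, of which EP2 and EP4 couple to Gs and raise cyclic AMP; it is cleared by uptake and by oxidation. In the cornea PGE2 is known as a mediator of inflammation and of the response to wounding, and cyclooxygenase inhibitors are used as eye drops.

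Both cyclooxygenase genes passed the rule used for a difference, under which a gene at 1 CPM or more in SP or KSFM must differ by 2-fold or more, with equality outside its interval. Their sequences upstream of the start of transcription are shown because these are the 2 genes past the rule. The windows cover the 250 bases before each start, read from RefSeq (GRCh38.p14) in the direction of the gene. Capitals mark a TATA box (TATAAA, gene strand), the core of a cyclic AMP response element (TGACG, either strand) and a C/EBP-like site (TTNNGNAA, either strand).

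PTGS2, chr1:186680424-186680673, minus strand: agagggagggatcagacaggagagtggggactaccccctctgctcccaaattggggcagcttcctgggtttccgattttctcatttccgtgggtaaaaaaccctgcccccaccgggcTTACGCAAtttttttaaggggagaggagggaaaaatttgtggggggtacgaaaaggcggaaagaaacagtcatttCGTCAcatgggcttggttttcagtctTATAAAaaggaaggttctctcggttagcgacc

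PTGS1, first start, chr9:122370283-122370532, plus strand: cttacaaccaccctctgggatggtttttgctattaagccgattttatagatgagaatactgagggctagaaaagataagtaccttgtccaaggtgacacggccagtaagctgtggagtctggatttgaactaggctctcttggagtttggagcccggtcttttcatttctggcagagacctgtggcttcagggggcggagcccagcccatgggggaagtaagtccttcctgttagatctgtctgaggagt

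PTGS1, second start, chr9:122375052-122375301, plus strand: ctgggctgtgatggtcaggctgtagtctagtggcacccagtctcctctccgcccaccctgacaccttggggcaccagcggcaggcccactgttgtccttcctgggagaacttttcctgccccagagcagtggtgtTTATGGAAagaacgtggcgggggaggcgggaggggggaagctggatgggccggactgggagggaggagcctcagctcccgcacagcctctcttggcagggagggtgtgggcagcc

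The PTGS2 window held 1 match each of the TATA box (bases -32 to -27 from the start), the cyclic AMP element core (-58 to -54) and the C/EBP-like site (-133 to -126). Of 35116 RefSeq promoter windows of that length, 6.80% held the TATA box, 21.2% the cyclic AMP element core and 33.2% the C/EBP-like site. The first PTGS1 window held none of the 3, and the second held 1 C/EBP-like site, at -115 to -108. GC boxes (GGGCGG, either strand), present in 42.6% of all windows, were found at -58 to -53 in the first PTGS1 window and at -202 to -197 in the second, and not in that of PTGS2. These matches are letters in a window, not measured binding, and the data do not show which PTGS1 start was used.

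PTGS2 is a textbook unstable message whose 3' untranslated region carries AUUUA repeats, the sites of RNA-binding proteins such as those encoded by ZFP36 and ELAVL1. For each gene the coding transcript with the longest such region in GENCODE release 29 (GRCh38) was read. The PTGS2 3' untranslated region of 2562 bases held 22 AUUUA motifs, or 8.59 per kilobase. That of PTGS1 held 3 in 3159 bases, or 0.950 per kilobase. PLA2G4A had 8.46 per kilobase, PTGER4 6.63 and PTGR1, with a short region of 154 bases, 19.5. PTGES3 had 5.28 per kilobase, PTGER2 4.34 and HPGD 2.62, while PTGES had 1 in 1280 bases and PTGES2 had 0 in 452. The first 30 bases after the PTGS2 stop codon hold 3 overlapping motifs, in capitals and written with T.

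PTGS2, start of the 3' untranslated region: aagtctaatgatcatATTTATTTATTTAta

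PTGS1, which encodes the cyclooxygenase usually called constitutive, had 1443 counts in SP and 525 in KSFM, or 85.3 and 24.3 CPM. It was 3.51-fold higher in SP (3.17 to 3.88), a log2 ratio of 1.81. PTGS2, the inducible cyclooxygenase, had 297 counts in SP and 107 in KSFM, or 17.6 and 4.96 CPM, and was 3.54-fold higher (2.83 to 4.46), a log2 ratio of 1.82. The change in PTGS1 relative to that in PTGS2 was 0.990 (0.769 to 1.27), a comparison within each library that does not depend on how the libraries are scaled. No difference between the changes of these genes was thus detectable, and the interval allows PTGS1 to have changed up to 1.27-fold more, or PTGS2 up to 1.30-fold more. PTGS1 remained the more abundant per unit length, at 4.32 times the TPM (a level adjusted for transcript length as well as depth) of PTGS2 in SP and 4.40 times in KSFM. The longest run of bases shared by PTGS1 and PTGS2 transcripts was 17, and neither gene had a fractional count, the sign of reads divided among genes.

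Of the 9 measured genes, 2 were past the rule upward and 0 downward. Over all 13632 genes at 1 CPM or more, 16.6% were past the rule, 9.86% upward and 6.77% downward, so the members' 22.2% is not a result about the group. The 9 had a median log2 ratio of 0.67, against 0.00 for all measured genes, and 8 of the 9 had a ratio above equality, against 49.96% of all. The 2 cyclooxygenases lay high among measured genes: 3.70% of genes had a larger ratio than PTGS1, and 3.66% a larger ratio than PTGS2. The intervals of 6 of the 9 lay wholly above equality and that of 1, PTGES2, wholly below, which at this depth also holds for 37.2% and 36.7% of all measured genes.

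**Figure D1:**
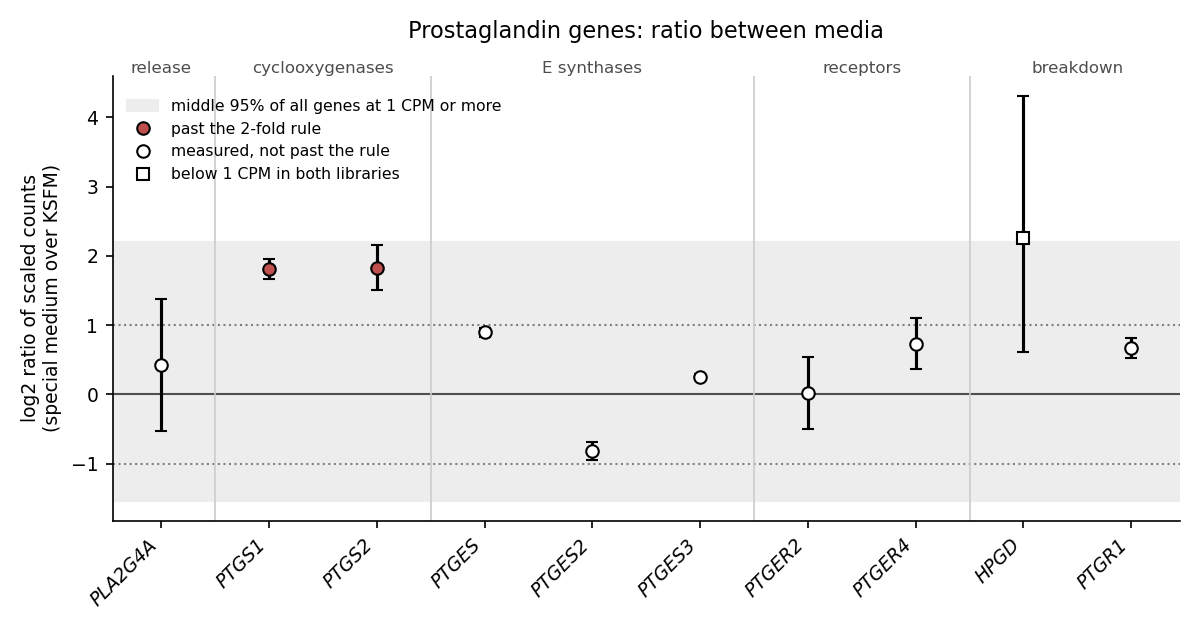
Log2 ratio of scaled counts, special medium over KSFM, for the 10 prostaglandin genes ordered by role; bars are exact 95% counting intervals, dotted lines mark 2-fold, and the grey band holds the middle 95% of all genes at 1 CPM or more (-1.53 to 2.20). Filled circles, PTGS1 and PTGS2, passed the 2-fold rule; the square, HPGD, was below 1 CPM in both libraries.

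Upstream of the cyclooxygenases, PLA2G4A, the gene of the cytosolic phospholipase that supplies arachidonic acid, was scarce. It had 21 counts in SP and 20 in KSFM, or 1.24 and 0.927 CPM, a ratio of 1.34 (0.691 to 2.60). At this depth neither equality nor a 2-fold difference lies outside the interval. PLA2G4A is the next annotated protein-coding gene to PTGS2 on chromosome 1, 148525 bases away on the other strand (PTGS2 from 186671791 to 186680427, PLA2G4A from 186828953 to 186988981). The change in PLA2G4A was 0.379 of that in PTGS2 (0.187 to 0.769). The only annotated gene between them, the noncoding PACERR, which starts next to PTGS2 on the opposite strand, had 0 counts in SP and 2 in KSFM.

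None of the 3 E synthase genes passed the rule, and their ratios lay on both sides of equality. PTGES, the inducible microsomal synthase that is coupled with PTGS2 in many cell types, had 4341 counts in SP and 2975 in KSFM, or 257 and 138 CPM, and a ratio of 1.86 (1.78 to 1.95). On counts it stayed short of 2-fold, but its TPM of 316 in SP and 150 in KSFM gave 2.11-fold. The TPM scale places the median ratio of all measured genes at 0.17 on the log2 scale, and with a TPM pseudocount of 1 and that median set to 0 the log2 ratio of PTGES was 0.92.

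PTGES2, a second membrane-associated synthase, was the only one of the 10 genes with a lower ratio. It had 634 counts in SP and 1424 in KSFM, or 37.5 and 66.0 CPM, a log2 ratio of -0.82 (-0.95 to -0.68), which is 1.76-fold lower in SP and short of 2-fold. Of all measured genes, 10.2% had a lower ratio. PTGES2-AS1, a noncoding gene 66 bases from PTGES2 on the opposite strand, had 52 counts in SP and 72 in KSFM. PTGES3, the cytosolic synthase that is also a cochaperone of HSP90, was the most abundant of the 10, with 9015 counts in SP and 9669 in KSFM. Its ratio was 1.19 (1.16 to 1.22). GENCODE lists 5 processed pseudogenes of PTGES3, none with a row in the tables, so its count is less certain.

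The shares of the 3 E synthase genes in their summed TPM differed between the libraries. PTGES made up 34.0% of the summed TPM of the 3 synthase genes in SP and 23.3% in KSFM. PTGES2 made up 4.49% in SP and 10.5% in KSFM, and PTGES3 61.5% and 66.2%. Relative to PTGES2, PTGES was 3.28-fold higher in SP than in KSFM (2.95 to 3.64), and relative to PTGES3 it was 1.56-fold higher (1.48 to 1.65). Relative to PTGES itself, PTGS1 was 1.88-fold higher (1.69 to 2.11) and PTGS2 1.90-fold (1.51 to 2.41). PTGS1, PTGES, PTGES2 and PTGR1 are 4 genes of chromosome 9. In GENCODE coordinates PTGR1 spans 111549722 to 111599893, PTGS1 122370530 to 122395703, PTGES2 128120693 to 128128462 and PTGES 129738331 to 129753047.

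**Figure D2:**
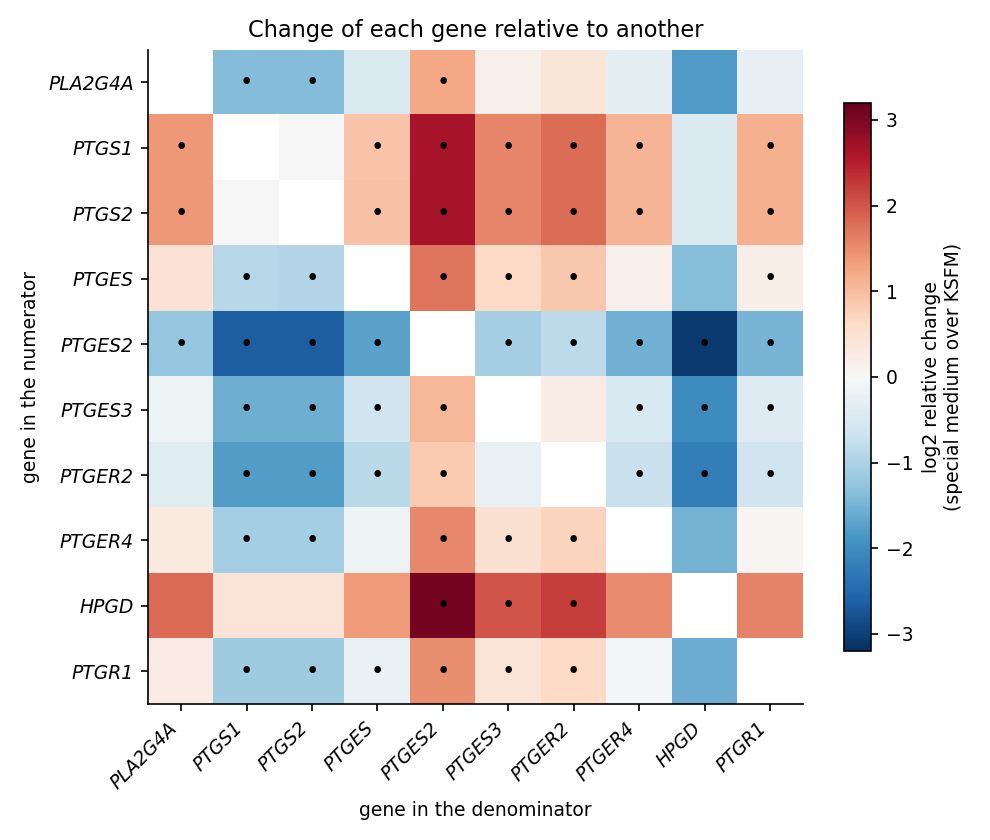
Change of the gene in each row relative to the gene in each column, special medium over KSFM, on the log2 scale from estimated counts; dots mark the 30 of 45 pairs whose exact 95% counting interval excludes equal change. The PTGS1 and PTGS2 rows are alike, with 0.990 between them, and the PTGES2 row is lower against every other gene.

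PTGER2 and PTGER4 encode EP2 and EP4. PTGER4 had 146 counts in SP and 112 in KSFM, or 8.63 and 5.19 CPM, a ratio of 1.66 (1.29 to 2.15). PTGER2 had 59 counts in SP and 74 in KSFM, or 3.49 and 3.43 CPM, a ratio of 1.02 (0.710 to 1.45). PTGER4 therefore was higher relative to PTGER2 in SP than in KSFM, with the change in PTGER2 at 0.612 of that in PTGER4 (0.392 to 0.953). Neither gene was past the rule. The PTGER4 locus lies on the opposite strand within TTC33, which had 395 counts in SP and 385 in KSFM. The kit kept strand, per the labels, but whether the counting used it is not stated there, so reads of the pair may not be fully separated.

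In the breakdown group, PTGR1, a reductase that acts after the oxidation step, had 899 counts in SP and 719 in KSFM, or 53.1 and 33.3 CPM, and a ratio of 1.59 (1.44 to 1.76). PTGR1 shares 28123 bases of its locus with ZNF483 on the opposite strand, a gene with 38 counts in SP and 40 in KSFM. HPGD, the dehydrogenase that carries out the first and rate-limiting step of PGE2 breakdown, had 15 counts in SP and 4 in KSFM. Its ratio of 4.78 (1.52 to 19.8) is poorly bounded, and at 0.887 and 0.185 CPM it stayed below the filter.

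The order of the genes by TPM was similar in the libraries. In SP it ran from PTGES3 (573 TPM), PTGES (316), PTGR1 (97.7), PTGES2 (41.7) and PTGS1 (35.5) to PTGS2 (8.21), PTGER4 (5.36), PTGER2 (3.03), PLA2G4A (0.91) and HPGD (0.62). In KSFM it was PTGES3 (425), PTGES (150), PTGES2 (67.6), PTGR1 (51.9), PTGS1 (9.10), PTGER4 (2.87), PTGER2 (2.65), PTGS2 (2.07), PLA2G4A (0.60) and HPGD (0.12). PTGES2 and PTGR1 exchanged places, and PTGS2 stood above both receptors in SP (7.30 to 9.20 TPM, against 4.53 to 6.30 for PTGER4). In KSFM the counting intervals of PTGER2 (2.08 to 3.33) and PTGER4 (2.36 to 3.45) overlapped each other and that of PTGS2. PLA2G4A and HPGD overlapped in SP but not in KSFM. Among measured genes, the PTGS1 level exceeded that of 64.3% of genes in SP and 34.4% in KSFM, and PTGES that of 96.6% and 92.6%.

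**Figure D3:**
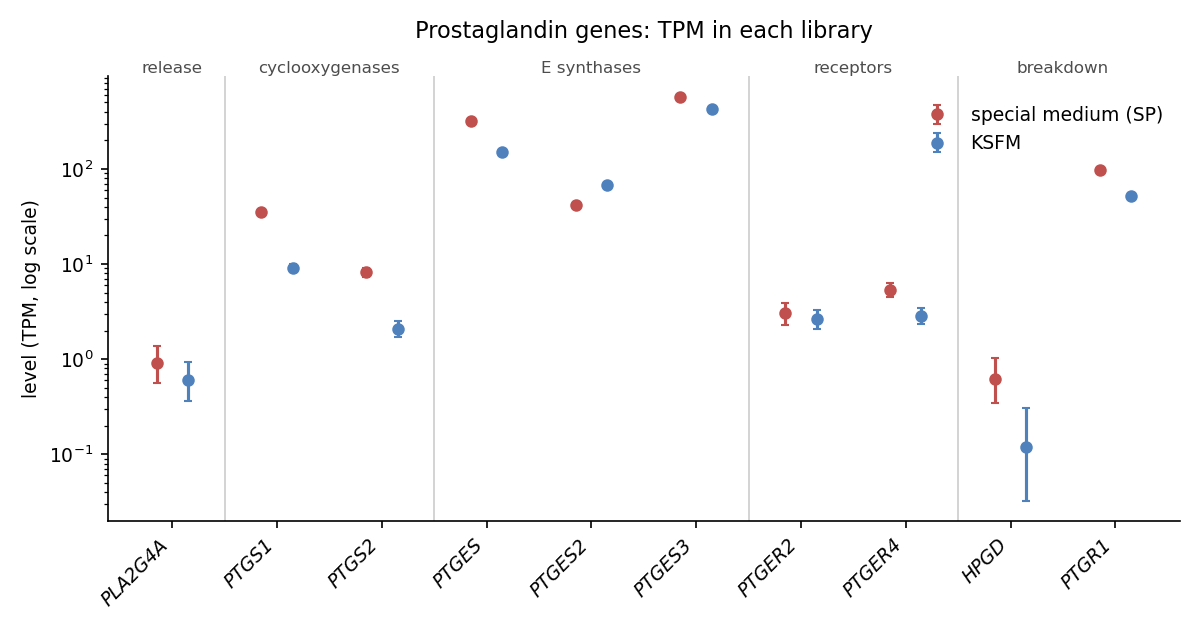
TPM of the 10 genes in the special medium and KSFM libraries, on a log axis, with bars for the exact 95% Poisson counting interval of the estimated count. PTGES3 and PTGES are highest in both libraries, and PTGES2 is the gene that is lower in SP.

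Count per TPM, which tracks the mean length of the transcripts that RSEM assigns to a gene, stayed within the range of most genes for all 10. Relative to the library median, the log2 change of this length (SP over KSFM) ran from -0.08 in PTGR1 to 0.05 in HPGD, which had few counts. The middle 95% of 10697 genes with at least 100 counts in both libraries ran from -0.09 to 0.08. For PTGS1 it was 0.01.

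Another 135 genes of arachidonic acid and prostanoid biology were read as 7 lists. All were found, 4 of them under older symbols, and 99 were measured. Of these 11 were past the rule upward and 8 downward, together 19.2%, close to the share of 16.6% over all genes. Over all measured genes 9.86% were past the rule upward and 6.77% downward, the shares to set beside each list below. Among these calls PLA2G2F, AKR1C3 and NR4A2 reached 1 CPM in SP only, where they were higher. ALOX5AP, ALOX12B, CYP4F2, NFATC2 and PDE4C did so in KSFM only. For a gene admitted by 1 library alone, the filter favours a call toward that library. The median log2 ratio of the 99 was 0.14.

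Among 5 measured other synthases of prostanoids 2 were higher, 0 lower, and the median log2 ratio was 0.90. Over all measured genes 9.86% were higher, and 5 genes are too few to set against that share. PTGIS, the prostacyclin synthase, had 392 counts in SP and 98 in KSFM and was 5.10-fold higher (4.08 to 6.43). AKR1C3, which reduces prostaglandins D2 and H2 and has close paralogs that make its reads uncertain, had 27 counts in SP and 16 in KSFM, 2.15-fold higher (1.12 to 4.28). PTGDS and HPGDS, the D synthases, had 0 counts in both libraries. PTGIS is typical of endothelium, so markers of that tissue are given: of 5, 1 was measured, CDH5, at 236 counts in SP and 3 in KSFM, while PECAM1 had 15 and 2, VWF 2 and 6, KDR 10 and 10, and TEK 0 in both. The summed TPM of the 5 was 7.74 in SP and 0.30 in KSFM, of which CDH5 alone gave 7.09 and 0.06. The part of these markers in the PTGIS result was not tested.

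Both of the higher genes among 7 of transport and other breakdown were transporters. SLCO2A1, the transporter that takes PGE2 back into the cell before oxidation, was 3.46-fold higher in SP (2.98 to 4.02), at 664 and 245 counts. SLCO3A1, a related transporter, was 2.47-fold higher (2.19 to 2.78). The export pump gene ABCC4 had a ratio of 0.918 (0.783 to 1.07). The list held 2 higher and 0 lower genes, with a median log2 ratio of 0.07.

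Among 7 other prostanoid receptors only the PGF receptor PTGFR (2.01 CPM in SP and 1.71 in KSFM) and the thromboxane receptor TBXA2R (1.36 and 2.41) were measured, and neither passed the rule (median log2 ratio -0.30). PTGER1 and PTGER3, which encode the other 2 PGE2 receptors, had 0 counts in both libraries, as did PTGDR and PTGIR. A count of 0 allows up to 0.177 CPM in SP and 0.139 CPM in KSFM, taking 3 counts as the limit.

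Of 19 measured other phospholipases and arachidonate-handling genes 3 were higher and 1 lower (median log2 ratio 0.16). ACSL5, an acyl-CoA synthetase, was 4.02-fold higher (3.56 to 4.54), and LPCAT3, which puts arachidonate back into phospholipids, 2.09-fold (1.88 to 2.34). PLA2G2F, a secreted phospholipase of epithelia, had 41 counts in SP and 0 in KSFM, 17.4-fold higher against a floor of 3 counts in KSFM, with a lower bound of 13.5-fold by the exact interval. PLA2G4B fell to 84 counts in SP, against 328 in KSFM, a log2 ratio of -1.61 (-1.98 to -1.26); it has read-through transcripts with its neighbour JMJD7, which makes its reads uncertain. ACSL4, the arachidonate-preferring synthetase, had a ratio of 0.969 (0.905 to 1.04).

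The lipoxygenase, leukotriene and epoxide branches had 1 higher and 3 lower of 15 measured genes, with a median log2 ratio of -0.44. All 3 lower genes reached 1 CPM in KSFM only, so the filter favoured a lower call for them. GGT5, which trims leukotriene C4, was 2.83-fold higher (2.32 to 3.47). ALOX5AP, the partner of 5-lipoxygenase, had 16 counts in SP and 63 in KSFM (log2 ratio -1.63), ALOX12B, an epidermal lipoxygenase, 16 and 64 (-1.65), and CYP4F2, an omega-hydroxylase with close paralogs, 11 and 48 (-1.77). LTA4H, of leukotriene B4 synthesis, was the most abundant of the branch at 257 CPM in SP and 174 in KSFM, a ratio of 1.47.

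Of 23 measured genes known to control PTGS2 mRNA, 0 were higher and 1 lower (median log2 ratio 0.22). The lower one was NFATC2, at 13 counts in SP and 53 in KSFM (log2 ratio -1.68). CEBPB, a C/EBP factor that acts on PTGS2, had 85.8 CPM in SP and 170 in KSFM, a log2 ratio of -0.98 that stopped short of 2-fold. ZFP36, which promotes decay of AUUUA-bearing messages, had 34.0 CPM in SP and 18.1 in KSFM, a ratio of 1.88 (1.65 to 2.14), and ELAVL1, which stabilises them, had a ratio of 1.10 (1.03 to 1.17). CEBPB, ZFP36 and ELAVL1 are named for their known action on PTGS2 and were picked after their values were seen.

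In the list of cyclic AMP signalling below EP2 and EP4, 3 of 28 measured genes were higher and 3 lower (median log2 ratio 0.12). RAPGEF3, the cyclic AMP-activated exchange factor EPAC1, had 181 counts in SP and 27 in KSFM, 8.55-fold higher (5.69 to 13.3), and ARRB1, an arrestin of receptor desensitisation, 3.62-fold (3.16 to 4.16). NR4A2, an immediate early nuclear receptor, was 4.16-fold higher (2.46 to 7.37). CREM (log2 ratio -1.09), PER1 (-1.17), both cyclic AMP-induced genes, and the phosphodiesterase PDE4C (-1.88, on 13 and 61 counts) fell. The genes of this list induced by cyclic AMP thus stood on both sides of equality.

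**Figure D4:**
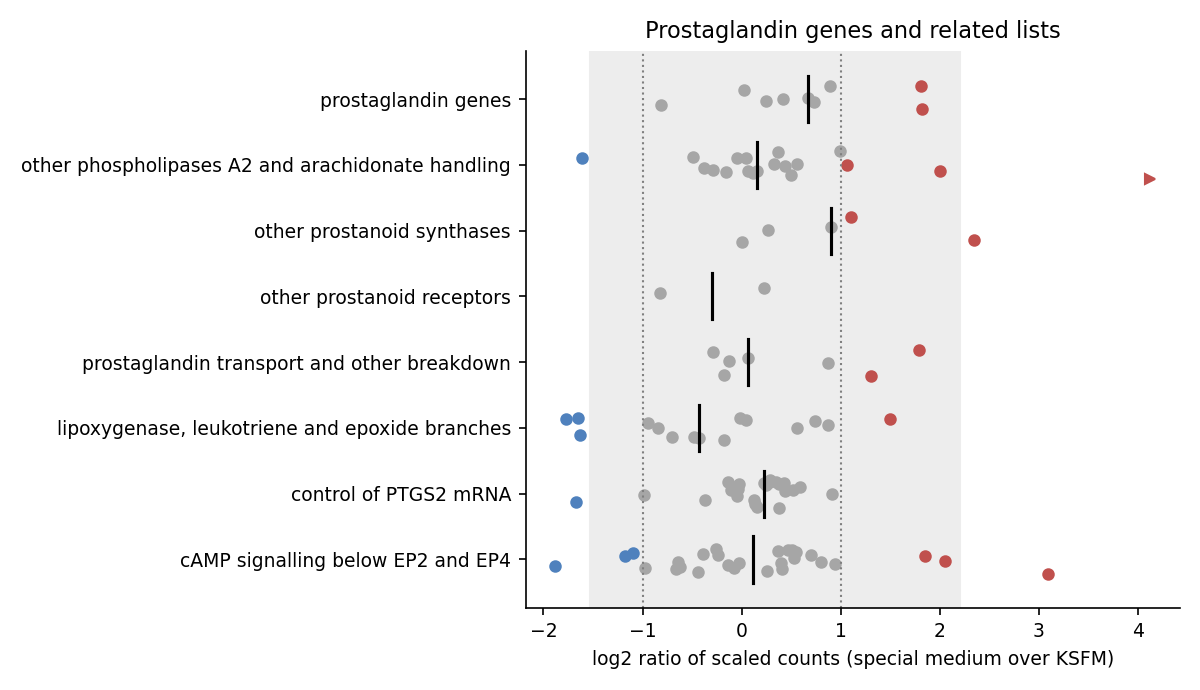
Log2 ratio of scaled counts, special medium over KSFM, of the measured genes of each list; each point is 1 gene, red past the 2-fold rule upward, blue downward and grey neither, with a black bar at the list median. The triangle is PLA2G2F, drawn at 17.4-fold, its ratio over a floor of 3 counts in KSFM, and the grey band is the middle 95% of all measured genes.

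Of the markers of other cells that make prostanoids, CDH5 and CD68 reached 10 CPM. The mast cell markers summed to 6 counts in SP and 1 in KSFM over 6 genes, none measured, and the fibroblast markers to 157 and 177 over 8 genes, 1 of them measured, COL1A1, which gave 143 and 166. Of the macrophage and monocyte markers, PTPRC had 0 counts in SP and 1 in KSFM and CD163 had 0 in both, whereas CD68, a lysosomal protein also made by other cells, had 1011 and 1230. CSF1R had 45 counts in SP and 78 in KSFM, CD14 62 and 2, and LYZ 11 and 48. The part of these markers in the cyclooxygenase result was not tested.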

How the data were processed

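Poly(A) libraries were made with a stranded kit, per the labels' protocols. The submitters' processing notes name GRCh38, RSEM (no version), HISAT2 2.1.0, fastp 0.20.0 and FastQC 0.11.9. How the strand was handled, which annotation was used and in what order the steps ran is not stated. Deposited by the authors were estimated counts (fractional in 8.05% of genes in SP and 11.3% in KSFM) and TPM values.

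Estimated counts were rounded and divided by library sizes scaled with edgeR 4.0.16 TMM factors (1.00 for SP, 0.999 for KSFM). Ratios of SP over KSFM carry exact 95% Clopper-Pearson intervals conditional on the summed counts, and changes between genes within the libraries carry exact conditional odds-ratio intervals. No molecular identifiers are mentioned, so counted reads may include PCR copies of 1 molecule, and every interval and floor reflects counting error alone. The rule was tested on data simulated with counting error alone, which cannot show how it behaves with spread between cultures. Coordinates are from GENCODE release 29, matched by identifier for all 10 genes; 10 had RefSeq promoter windows.

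The members and lists were chosen with earlier results of these data known. Text names all members, list genes past the rule, the most expressed gene where none passed, and other-cell markers at 10 CPM or more; further genes were picked after their values were seen. Alternatives were scaling by upper quartile, by DESeq2 1.42.0 or by total count, the TPM scale, other filters, and stricter rules. Figures were drawn with matplotlib 3.10.9; pandas 2.3.3, scipy 1.17.1 and numpy 2.4.6 ran under Python 3.11.15, and edgeR under R 4.3.3.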

Additional observations from a re-analysis of the deposited data

How the results depend on the processing

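PTGS1 and PTGS2 stayed past the rule under each alternative scaling and filter and with the whole interval beyond 2-fold. They also passed on each TPM setting, where the rule was 2-fold alone, without an interval. By a 4-fold rule 0 of the 10 genes passed. PTGES joined them on TPM (log2 ratio 1.07 with a pseudocount of 1 and 1.08 with 0.1), and HPGD without a filter. The members' median log2 ratio of 0.67 became 0.88 on TPM with a pseudocount of 0.1, which shifts all measured genes by 0.16, and was 0.57 on centred TPM. Of 76 alternative values for single genes, 67 lay within the gene's counting interval and 9, all on the TPM scale, outside. The filter settings leave a gene's ratio unchanged, so their values among the 67 lay within by construction. Among the 67, 1 turned sign, that of PTGER2, on centred TPM, where it was -0.01. Of the 135 other genes, 11 were higher and 8 lower. The higher count was 5 by a 4-fold rule, 9 with the interval beyond 2-fold and 8 with a filter of 10 CPM. On TPM it was 13 with a pseudocount of 1, 9 after centring and 16 with a pseudocount of 0.1. The lower count was 0 by the 4-fold rule, 2 with the interval beyond 2-fold and 3 with a filter of 10 CPM. It was 9 with upper quartile scaling and 10 without a filter. On TPM with a pseudocount of 1 it was 2, 5 after centring and 7 with a pseudocount of 0.1. A filter of 10 CPM leaves no value for 4 of the 10 genes. No paired analysis was possible because each medium is 1 library. Depth limits PLA2G4A and HPGD most, at 21 counts or fewer per library: their intervals hold both sides of 2-fold.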
